A study of Mus musculus with 9 samples.

Results

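Complex I, or NADH:ubiquinone oxidoreductase, is the entry point of electrons from NADH into the respiratory chain of mitochondria. A peripheral arm holds the flavin and the iron-sulfur clusters that carry electrons to ubiquinone, and a membrane arm pumps protons. Subunits are encoded by both genomes of the cell: messages of the nuclear genes are made and spliced in the nucleus, whereas mitochondrial messages are cut out of long transcripts that cover both strands of the mitochondrial DNA. In T cells the respiratory chain serves resting metabolism and also makes reactive oxygen species that act in receptor signalling.

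The 7 subunit genes described here were chosen by name from genes that the authors had listed as changed. Ndufv1, Ndufs8 and Ndufb9 are nuclear and are among the 2889 genes with a value in each library. The mitochondrial genes mt-Nd1, mt-Nd3, mt-Nd5 and mt-Nd6 have a row in the authors' deposited table of 3181 genes for adipocyte medium, which gives no value per library. All 7 were in that table and 0 of 7 were in the table of 598 genes for stromal medium. Their difference between adipocyte and unconditioned medium is therefore what chose them, and it is given as a description with no test.

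The T cells came from spleens of wild-type C57BL/6 mice by negative selection for CD3+ cells, in which antibodies pull out other cell types. Cells of each of 3 mice were kept for 4 h in adipocyte conditioned medium, stromal cell conditioned medium or unconditioned RPMI, which gave 3 libraries per medium and 9 in all, with no genetic change in any group. The source of the adipocytes and stromal cells, and the age of the mice, are not given in the labels. Reads on the listed genes came to between 6522742 and 13758643 per library, and a nuclear subunit had from 1163 to 7568 reads in a library. Total library depth is not known here.

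The label of the cells could be checked on 4 of 20 T cell markers, since the table of libraries holds only genes listed as changed. Their summed level was 32578 to 35237 normalized counts with adipocyte medium, 72070 to 73297 with stromal medium and 86513 to 97969 with unconditioned medium. For 9 of 18 B cell markers the sum was 4240 to 5922 with adipocyte medium, 11710 to 17555 with stromal medium and 11147 to 14399 with unconditioned medium. For 12 of 18 myeloid markers it was 4765 to 5036 with adipocyte medium, 9161 to 15164 with stromal medium and 8768 to 13611 with unconditioned medium. For 7 of 13 neutrophil markers it was 311 to 1027 with adipocyte medium, 1861 to 3315 with stromal medium and 1903 to 2794 with unconditioned medium. For 2 of 8 NK cell markers it was 1767 to 2657 with adipocyte medium, 3256 to 3714 with stromal medium and 3008 to 3641 with unconditioned medium. The erythroid marker Car1, 1 of 9, had 74.8 to 146 with adipocyte medium, 539 to 1776 with stromal medium and 259 to 430 with unconditioned medium. Single markers went against the lower sums in adipocyte medium. The log2 fold change of adipocyte over unconditioned medium was 1.74 for Lilrb4a and 0.34 for Cd14 (myeloid), 1.57 for Ngp (neutrophil) and 1.12 for Klre1 (NK). For myeloid and neutrophil markers the stromal and unconditioned sums overlapped, and single markers went both ways. The log2 fold change of stromal over unconditioned medium ran from -1.53 (Adgre1) to 1.99 (Cd14) over the 12 myeloid markers. Over the 7 neutrophil markers it ran from -1.33 (Mmp9) to 0.79 (Ngp). The T cell marker Cd8a was at 0.30 in stromal over unconditioned medium, against the lower T cell sum. Cd3e, Cd3g and Cd8b1 were at -0.61, -0.55 and -0.12 there. None of the markers in these sums was at 0 in any library. The part of these shifts in the values below was not tested, and in bulk RNA fewer cells of a type and less RNA per cell cannot be told apart.

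The sequences of the mitochondrial members show how they differ from nuclear messages and from each other. The first 60 bases of each transcript are given 5′ to 3′ from GENCODE M21, with the start codon in capitals.
mt-Nd1: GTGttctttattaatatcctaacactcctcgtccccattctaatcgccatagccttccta
mt-Nd3: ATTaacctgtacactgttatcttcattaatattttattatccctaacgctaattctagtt
mt-Nd5: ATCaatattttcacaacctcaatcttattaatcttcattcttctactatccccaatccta
mt-Nd6: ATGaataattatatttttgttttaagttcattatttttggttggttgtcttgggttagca
The start codons of mt-Nd1, mt-Nd3 and mt-Nd5 differ from the ATG of nuclear messages. The first 3 transcripts are poor in G, at 11.6% in mt-Nd1, 10.9% in mt-Nd3 and 9.98% in mt-Nd5. The fourth, mt-Nd6, has 28.1% G and 5.97% C, and is read from the other strand.

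On that other strand mt-Nd6 runs towards mt-Nd5, and the genes overlap at their 3′ ends. The last 30 bases of both are shown because the libraries did not keep strand, and the 14 shared bases are in capitals.
mt-Nd5: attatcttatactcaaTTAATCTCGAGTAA
mt-Nd6: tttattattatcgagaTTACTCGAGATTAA
The capitals are reverse complements of each other. A read in this overlap, or any antisense read along either gene, could not be assigned to its strand, so the values of mt-Nd5 and mt-Nd6 are uncertain to that extent.

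Messages of the nuclear subunits were lower in adipocyte than in unconditioned medium, with changes of -42.6% to -47.2%. Ndufv1 (ENSMUSG00000037916, chromosome 19) encodes the flavoprotein at the tip of the peripheral arm, where NADH is oxidised. In mice 1, 2 and 3 it had 3129, 3135 and 3296 normalized counts in adipocyte medium, 4907, 4992 and 4606 in stromal medium, and 5316, 5769 and 5578 in unconditioned medium. The 3 media did not overlap, with adipocyte lowest and unconditioned highest. The log2 fold change of adipocyte over unconditioned medium was -0.80 (limma SE 0.071), a change of -42.6%.

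Ndufs8 (ENSMUSG00000059734, chromosome 19) encodes an iron-sulfur protein that passes electrons on towards ubiquinone. It had 1887, 1984 and 1787 normalized counts in adipocyte medium, 4185, 3892 and 4099 in stromal medium, and 3394, 3710 and 3603 in unconditioned medium, for mice 1, 2 and 3. The order differed from that of Ndufv1, since stromal libraries were highest and again no groups overlapped. Its log2 fold change of adipocyte over unconditioned medium was -0.92 (SE 0.075), a change of -47.2%.

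Ndufb9 (ENSMUSG00000022354, chromosome 15) encodes an accessory subunit of the membrane arm. In mice 1, 2 and 3 it had 1673, 1735 and 1634 normalized counts in adipocyte medium, 3026, 2771 and 2873 in stromal medium, and 2841, 3350 and 3173 in unconditioned medium. Adipocyte libraries were again lowest, while stromal and unconditioned libraries overlapped. The log2 fold change of adipocyte over unconditioned medium was -0.89 (SE 0.082), a change of -46%.

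**Figure D1:**
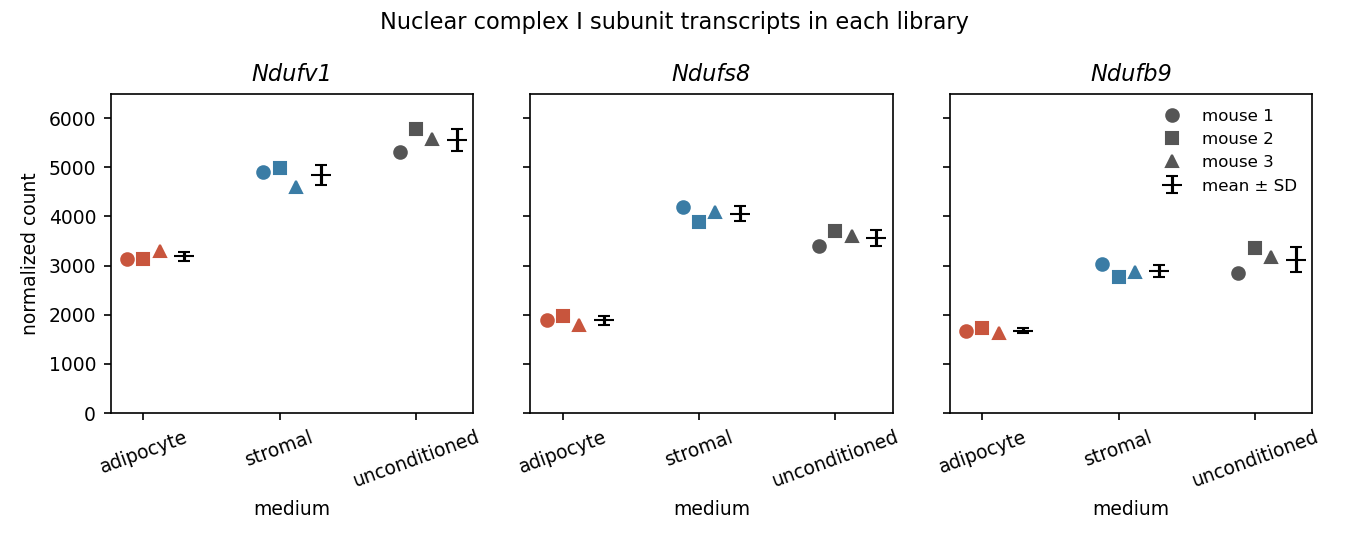
Normalized counts of Ndufv1, Ndufs8 and Ndufb9 by medium, with 1 symbol per mouse and the mean ± SD (n = 3) in black. Adipocyte libraries are lowest for each subunit, between 1634 and 3296, and stromal libraries lie above the unconditioned ones for Ndufs8 and below them for Ndufv1.

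The direction of these differences rests on the authors' scaling of the libraries. In the limma fit 63.4% of the 2868 tested genes were lower in adipocyte medium past the threshold, and the groups of 63.4% did not overlap with adipocyte lower, so that 3 of 3 subunits lower says nothing about complex I in particular. The median tested gene was at -1.03, and the 3 subunits, at -0.92 to -0.80, were less low than that. A median of ratios over the listed genes shifted every log2 fold change by 0.93 and left Ndufs8 at 0.0056, Ndufb9 at 0.036 and Ndufv1 at 0.13. That scaling sets the median of genes chosen for changing near 0 by construction, and trimmed means (TMM), which shift by 0.45, left the subunits between -0.47 and -0.35.

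Against stromal medium, 3 of 3 subunits had adipocyte libraries below every stromal library, beside 56.2% of tested genes. The log2 fold change of adipocyte over stromal medium was -1.11 (SE 0.075) for Ndufs8, -0.78 (SE 0.082) for Ndufb9 and -0.60 (SE 0.071) for Ndufv1, with the median tested gene at -0.60. These values share the adipocyte libraries with the comparison that chose the genes.

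Stromal medium was not used in choosing the members and could be tested against unconditioned medium, whose libraries were used. The 3 nuclear members had been listed as lower than in those unconditioned libraries, so this comparison leans towards a fall. In this comparison limma with Benjamini-Hochberg adjustment called 57.7% of tested genes, 36.6% lower and 21.1% higher, and the median gene was at -0.17. Ndufv1 fell, by 0.20 on the log2 scale (SE 0.071, 95% interval -0.35 to -0.046, adjusted p = 0.0288). Ndufs8 was at 0.19 (SE 0.075, interval 0.022 to 0.35, adjusted p = 0.0513) and Ndufb9 at -0.11 (SE 0.082, interval -0.29 to 0.070, adjusted p = 0.279). Thus 1 of 3 was called, and 36.6% is not the share for genes listed as lower. Groups did not overlap with stromal higher for 25.1% of tested genes, Ndufs8 among them, and with stromal lower for 44.2%, Ndufv1 among them.

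The Ndufv1 call was lost with both other scalings and held in 6 of 9 fits that left out 1 library, and by edgeR (adjusted p = 0.0335) and DESeq2 (0.0154). Its adjusted limma p was 0.513 with TMM (log2 fold change -0.057), and the median of ratios turned it to 0.16 (adjusted p = 0.0897). The limma adjusted p was 0.106 without stromal replicate 3, 0.115 without unconditioned replicate 2 and 0.0815 without unconditioned replicate 3. Ndufs8 kept its direction under each setting tried. It was past the threshold with TMM at 0.33 (limma adjusted p = 0.00189) and with the median of ratios at 0.54 (adjusted p = 4.63e-05). With 1 library left out, Ndufs8 passed in 3 of 9 fits, those without adipocyte replicate 2 (limma adjusted p = 0.0354), adipocyte replicate 3 (0.0455) or stromal replicate 2 (0.0452), and did not in 6, with adjusted p up to 0.166. On recovered reads its adjusted p was 0.0568 by edgeR and 0.042 by DESeq2.

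Ratios of subunits within a library do not depend on scaling, and in stromal libraries they shifted towards Ndufs8. The log2 ratio of Ndufs8 over Ndufv1 was -0.73, -0.66 and -0.88 in adipocyte medium, -0.23, -0.36 and -0.17 in stromal medium, and -0.65, -0.64 and -0.63 in unconditioned medium, for mice 1, 2 and 3. Every stromal library lay above every other library, and the stromal mean exceeded the unconditioned mean by 0.39. The log2 ratio of Ndufs8 over Ndufb9 was 0.17, 0.19 and 0.13 in adipocyte medium, 0.47, 0.49 and 0.51 in stromal medium, and 0.26, 0.15 and 0.18 in unconditioned medium. Here too the stromal libraries stood above all others, by 0.29 over the unconditioned mean. Among single tested genes, stromal and unconditioned groups did not overlap for 25.1% with stromal higher and 44.2% with stromal lower. The share of gene pairs whose ratios separate like this was not computed. The shift is therefore not shown to be particular to these subunits.

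The log2 ratio of Ndufb9 over Ndufv1 averaged -0.92 ± 0.082 in adipocyte medium, -0.74 ± 0.093 in stromal medium and -0.83 ± 0.062 in unconditioned medium (SD, n = 3 each), with overlapping groups. A two-sided exact permutation test of stromal against unconditioned libraries gave p = 0.1 for both ratios with Ndufs8, the smallest that 3 against 3 allow, and p = 0.3 for Ndufb9 over Ndufv1. Adjusted over the 3 ratios, the exact p was 0.15, 0.15 and 0.3. This permutation test took the libraries as independent and did not pair them by mouse. Of adipocyte over unconditioned medium the ratios differed by -0.12, -0.030 and -0.089 for Ndufs8 over Ndufv1, Ndufs8 over Ndufb9 and Ndufb9 over Ndufv1. For Ndufs8 over Ndufv1 every adipocyte library lay below every unconditioned one, while the other ratios overlapped. These differences come from the comparison that chose the genes and were not tested.

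**Figure D2:**
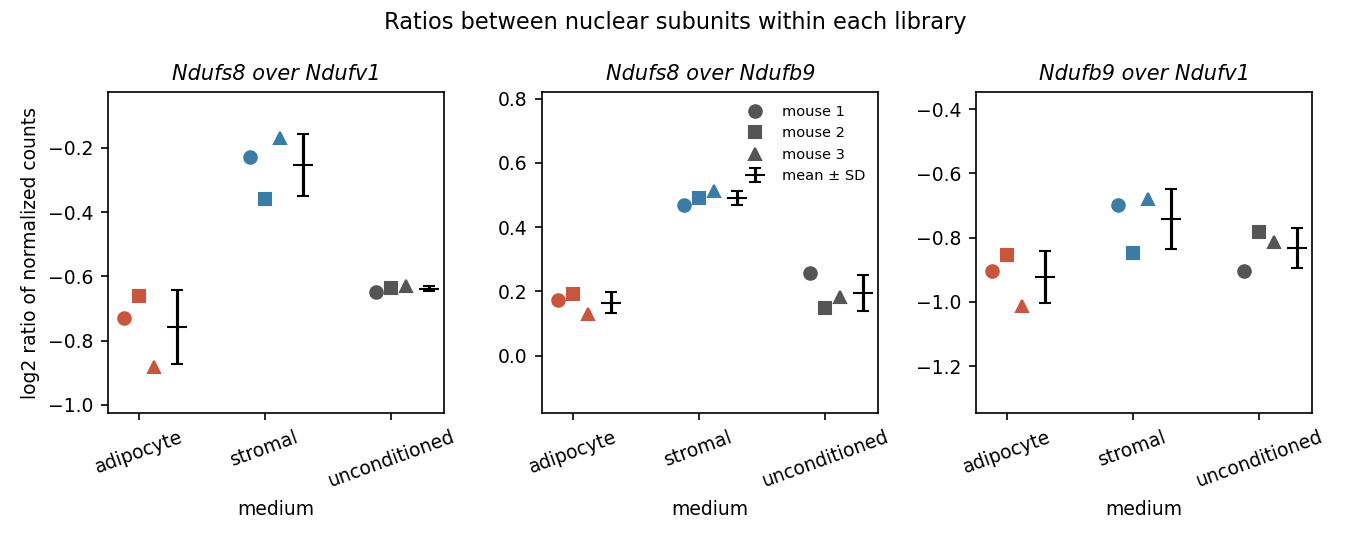
Log2 ratio of normalized counts of subunit pairs within each library, by medium, with 1 symbol per mouse and the mean ± SD (n = 3) in black; each vertical axis spans 1 log2 unit. The stromal libraries are highest for both ratios with Ndufs8, between -0.36 and -0.17 over Ndufv1 and between 0.47 and 0.51 over Ndufb9.

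Ndufs8 and Ndufv1, whose ratio was highest in the stromal libraries, lie near each other on chromosome 19 with 8 protein-coding genes between them in RefSeq's annotation of GRCm38.p6. Their promoters are shown to set the sequences of these neighbours side by side. RefSeq sequences of this build matched 2 of the 3 nuclear subunits. Each runs 5′ to 3′ from 250 bases before to 50 after the start, on the minus strand at chr19:3912725-3913024 for Ndufs8 and chr19:4012706-4013005 for Ndufv1, with motif matches in capitals.
Ndufs8: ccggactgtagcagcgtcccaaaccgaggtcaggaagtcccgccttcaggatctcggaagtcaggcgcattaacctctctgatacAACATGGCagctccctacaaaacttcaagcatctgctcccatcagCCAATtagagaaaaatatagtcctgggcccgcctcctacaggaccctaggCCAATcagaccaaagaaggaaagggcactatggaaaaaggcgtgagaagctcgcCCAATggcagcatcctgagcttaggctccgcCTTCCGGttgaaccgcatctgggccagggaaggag
Ndufv1: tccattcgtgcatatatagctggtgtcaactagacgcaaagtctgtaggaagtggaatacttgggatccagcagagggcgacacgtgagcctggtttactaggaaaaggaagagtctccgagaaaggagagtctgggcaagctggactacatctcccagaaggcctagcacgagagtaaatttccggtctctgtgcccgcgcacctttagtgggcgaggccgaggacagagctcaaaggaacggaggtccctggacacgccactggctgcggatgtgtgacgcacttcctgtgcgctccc

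Both strands were searched for motifs of factors known to act at respiratory chain genes, and no matches overlapped. The CCAAT box (CCAAT) was found at 3 places in Ndufs8 and is held by 37.4% of 32851 promoters of this length. The ETS motif of GABP (CCGGAAG) had 1 match in Ndufs8, beside 8.86% of promoters, and the YY1 motif (AANATGGC) had 1, beside 6.05%. The NRF1 motif (GCGCA, any base, then GCGC), held by 4.6% of promoters, had 0 matches in both. Ndufv1 had 0 matches to any of the 4 motifs in this window. The matches are descriptions of these letters only.

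By Pearson correlation of log2 values over the 9 libraries, the gene most like Ndufv1 among those tested was Ndufaf8 (r = 0.997), which encodes a complex I assembly factor, followed by Trp53rka and Chmp6 (both 0.996). For Ndufb9 the nearest were Fis1, a mitochondrial fission gene (r = 0.997), Rfc2, a clamp loader subunit gene (0.995), and Dhodh (0.995), for the pyrimidine synthesis enzyme that passes electrons to ubiquinone. For Ndufs8 those near it included Cnp (r = 0.996) and Mrpl39, a mitochondrial ribosomal protein gene (0.996). Between members, r was 0.978 for Ndufv1 with Ndufb9, 0.961 for Ndufs8 with Ndufb9 and 0.907 for Ndufs8 with Ndufv1. The median r with all tested genes was 0.677 to 0.827. These correlations include the difference between adipocyte and unconditioned medium that chose the members, among genes themselves listed as changed.

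Messages of the mitochondrial subunits were also lower in adipocyte medium, and 4 of 4 had a lower value than each nuclear member, mt-Nd1 only narrowly. The subunit mt-Nd1 (ENSMUSG00000064341), in the membrane arm beside the ubiquinone site, had a log2 fold change of -0.93 (SE 0.088) in the authors' deposited table, or 52.5% of the unconditioned level. Its neighbours in the membrane arm were lower: in the authors' deposited table mt-Nd3 (ENSMUSG00000064360) was at -1.77 (SE 0.097), 29.3% of the unconditioned level. The value of mt-Nd6 (ENSMUSG00000064368) was -1.67 (SE 0.11), or 31.5%, in the authors' deposited table. This type of kit primes cDNA at poly(A), and how well that captured mt-Nd6 was not tested. The proton-pumping subunit mt-Nd5 (ENSMUSG00000064367), at the far end of the arm, was at -1.20 (SE 0.097), or 43.7%, in the authors' deposited table.

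For the nuclear members the authors' deposited table gave -0.80 (SE 0.080) for Ndufv1, -0.89 (SE 0.093) for Ndufb9 and -0.92 (SE 0.087) for Ndufs8. The median of the 4 mitochondrial members, -1.43, was 0.54 below the median of the 3 nuclear ones, -0.89, in the authors' deposited table. This gap does not change with scaling, and it is a difference between genes chosen from the same comparison, so no test of it was made. The ranges of the members did not overlap, at -1.77 to -0.93 for the mitochondrial and -0.92 to -0.80 for the nuclear ones in the authors' deposited table. However, mt-Nd1 lay within 1 SE of the Ndufs8 and Ndufb9 values. The 2 other nuclear subunits in the authors' deposited table, Ndufa10 at -0.98 and Ndufb3 at -0.95, were below mt-Nd1. Over all listed subunits the ranges of the 2 genomes therefore overlapped.

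Of 3181 genes in the authors' deposited table, 1970 were lower and the median was -1.07. The share of that table's genes with a lower value was 19.1% for mt-Nd3, 22.1% for mt-Nd6, 42.1% for mt-Nd5 and 57.5% for mt-Nd1, against 58% to 61.8% for the nuclear members. Shifted by the median of ratios, mt-Nd1 came to -0.0029, mt-Nd5 to -0.27, mt-Nd6 to -0.74 and mt-Nd3 to -0.85. The authors tested for a change beyond 1.5-fold, and the member nearest their limit was Ndufv1, with an adjusted p of 0.0464 in the authors' deposited table where the largest was 0.0499. Values of genes outside that limit were not used here.

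**Figure D3:**
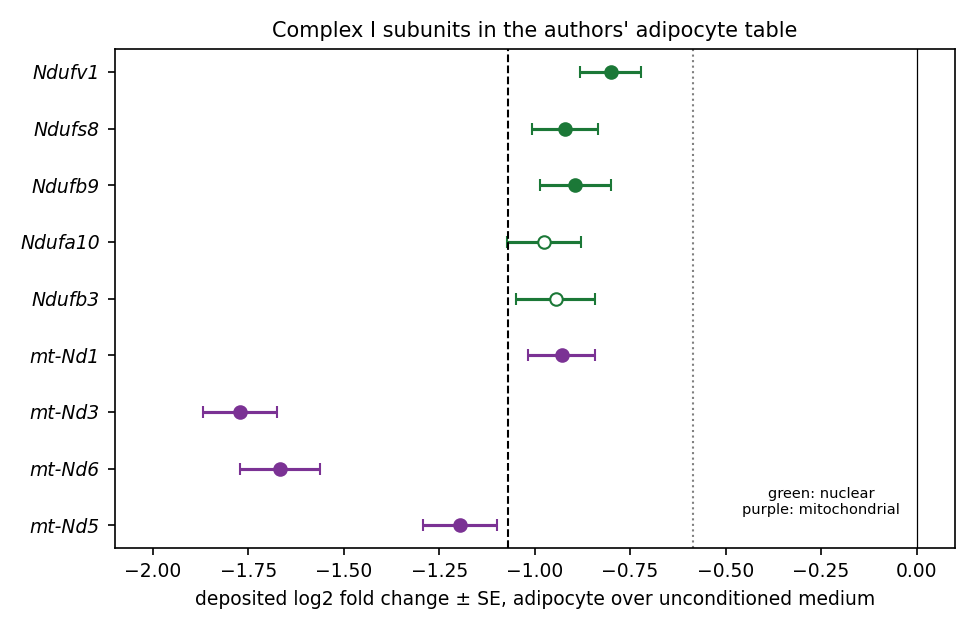
Log2 fold change of adipocyte over unconditioned medium ± SE in the authors' deposited table, for nuclear subunits (green) and mitochondrial subunits (purple); open circles are 2 nuclear subunits outside the 7. The dashed line is the median of the table, -1.07, the dotted line a 1.5-fold decrease, and mt-Nd3 and mt-Nd6, at -1.77 and -1.67, lie left of all nuclear subunits.

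Levels differed widely between subunits, with the mitochondrial messages above the nuclear ones. Over the 9 libraries, the mean normalized count per kb of annotated exon was 30796 for mt-Nd1, 6881 for mt-Nd5, 5119 for mt-Nd3 and 4548 for mt-Nd6, from means in the authors' deposited table. On the same per-length scale it was 2487 for Ndufb9, 2456 for Ndufs8 and 1718 for Ndufv1. Exon lengths came from GENCODE M21, which may not be the annotation the authors counted with. Levels also depend on how well priming at poly(A) captured each message, which was not tested. The most abundant mitochondrial member thus had the smallest difference of the 4, and the 2 least abundant had the largest.

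The rest of the mitochondrial genome did not move as a block. Of its 37 genes, 10 were in the authors' deposited table for adipocyte medium, 2 higher and 8 lower, and 0 were in that for stromal medium. The ribosomal RNAs mt-Rnr1 and mt-Rnr2 were the 2 higher ones, at 1.34 (SE 0.11) and 1.31 (SE 0.081) in the authors' deposited table. They lie on the same strand as mt-Nd1, with mt-Rnr2 separated from it only by a tRNA gene. In the authors' deposited table the log2 fold change of mt-Nd1 minus that of mt-Rnr2 was -2.24, a gap that no scaling changes, and for mt-Nd3 the gap was -3.08. Priming at poly(A) may not capture ribosomal RNAs and messages alike, and its part in these gaps was not tested.

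Genes of the minus strand, on which mt-Nd6 lies, were all lower where listed. The strand holds 9 genes, mt-Nd6 and 8 tRNA genes, and 5 of the 9 were in the authors' deposited table, against 5 of 28 on the plus strand. The 4 listed tRNA genes, of 22 in the genome, were each on the minus strand. In the authors' deposited table mt-Te, the tRNA gene next to mt-Nd6, was at -3.89 (SE 0.57), mt-Tc at -3.03 (SE 0.74), mt-Tq at -2.99 (SE 0.36) and mt-Tn at -2.48 (SE 0.70). Their mean normalized counts of 17.3 to 152 were low, and cDNA primed at poly(A) does not measure mature tRNA well. Since the libraries kept no strand, reads counted for these genes may come from precursors of either strand. Of the 13 protein genes 4 were listed, all of complex I, whereas mt-Nd2, mt-Nd4, mt-Nd4l and the mitochondrial genes of complexes III to V were not among the rows used here.

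**Figure D4:**
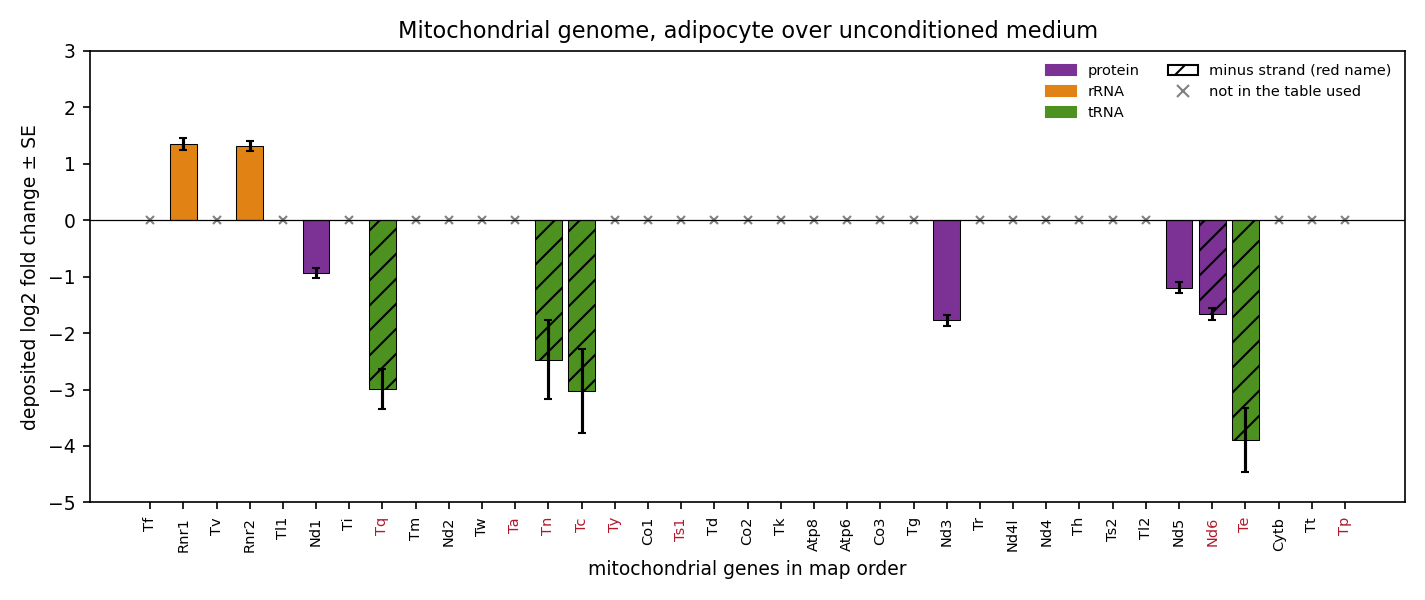
Log2 fold change of adipocyte over unconditioned medium ± SE in the authors' deposited table for mitochondrial genes in map order; hatched bars and red names are minus-strand genes and crosses are genes with no row in the table used. Both rRNA bars are above 0, at 1.34 and 1.31, and the 8 other bars are below 0.

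Those nuclear genes of the chain that the authors listed for adipocyte medium outside the 7 members were lower there as well. The lists held 153 symbols of complexes I to V and their assembly, older synonyms included, of which 16, the 3 nuclear members among them, were in the authors' deposited table for adipocyte medium, 16 of 16 lower (median -1.19), beside 1970 of its 3181 genes lower and a median of -1.07. Shifted by the median of ratios, 12 of these 16 stayed below 0 in the authors' deposited table (median -0.26). The remaining nuclear complex I subunits there were Ndufa10 at -0.98 (SE 0.097) and Ndufb3 at -0.95 (SE 0.10) in the authors' deposited table, which makes 5 of 37 nuclear subunits. The complex I assembly factor genes had larger differences: Ndufaf3 was at -1.62, Ndufaf7 at -1.40, Acad9 at -1.34 and Ndufaf8 at -1.23 in the authors' deposited table. Lyrm7, which encodes an assembly factor of complex III, was lowest of the lists at -2.04 in the authors' deposited table. Being in that table is itself the selection on this comparison. Most symbols of the lists, all 36 of complex V among them, had no row there, so these values do not describe the chain as a whole.

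In stromal against unconditioned medium, 14 genes of these lists other than the members were tested by limma, of which 7 fell and 0 rose, with a median of -0.31, beside 36.6% lower and a median of -0.17 over all tested genes. These calls rested on the scaling: with TMM 2 of the 14 fell and 1 rose (median -0.17), and with the median of ratios 1 fell and 3 rose (median 0.046), a comparison chosen after the data were seen. Of the 14, 1 gene, Dmac2l, was in the sample table through its listing in the authors' deposited table for stromal medium alone, so this comparison chose it. Without it 6 of 13 fell and 0 rose (median -0.31) on the authors' scaling, 1 fell and 1 rose with TMM, and 0 fell and 3 rose with the median of ratios. These 13 had been listed as lower in adipocyte than in unconditioned medium, and the stromal comparison shares those unconditioned libraries. So 36.6% is not the share for genes listed as lower. The values that follow are on the authors' scaling. Ndufb3 fell by 0.31 on the log2 scale (SE 0.096, limma adjusted p = 0.0166), whereas Ndufa10 was at -0.0076 (SE 0.089, adjusted p = 0.947). Among assembly factors Ndufaf7 fell by 0.39 (limma adjusted p = 0.00967) and Acad9 by 0.32 (adjusted p = 0.0106), while Ndufaf8 was at -0.26 (adjusted p = 0.0519) and Ndufaf3 at -0.14 (adjusted p = 0.37). Cox15, for heme A synthesis of complex IV, fell by 0.39 (limma adjusted p = 0.00259). Dmac2l, a gene linked to ATP synthase, was at -1.37 (SE 0.16), given as a description with no test.

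Of 35 genes that express the mitochondrial genome 3 had values per library, because the authors had listed them as lower in adipocyte medium. The others were not among the rows used here. That all 3 were lower in adipocyte medium, beside 63.4% of tested genes, therefore follows from the listing. With the median of ratios Fastk turned to 0.061, and 1 of 3 was called lower. Tefm, the elongation factor of mitochondrial transcription, had 160, 184 and 118 normalized counts in adipocyte medium, 473, 395 and 411 in stromal medium, and 389, 422 and 485 in unconditioned medium. It was lowest in adipocyte medium with no overlap, and stromal and unconditioned libraries overlapped (limma log2 fold change -0.016, adjusted p = 0.944). Fastk, of a family that binds mitochondrial RNA and includes a form needed for mt-Nd6 message, was at -0.86 (SE 0.088) in adipocyte against unconditioned medium and fell by 0.54 in stromal medium (limma adjusted p = 2.23e-04). Mterf2, of the mitochondrial termination factor family, was at -1.26 and fell by 0.59 in stromal medium (limma adjusted p = 0.0159). Thus 2 of 3 fell in stromal medium, beside 36.6% of tested genes. However, all 3 were listed as lower than in the same unconditioned libraries, so 36.6% is not the share for such genes. The fall of Mterf2 was not called with TMM (limma adjusted p = 0.0532), and neither fall was called with the median of ratios (0.277 for Mterf2, 0.107 for Fastk).

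Of 17 regulators of mitochondrial biogenesis 4 were in the table of libraries, which holds only genes listed as changed. All 4 were higher in adipocyte medium, by 0.91 to 1.33, beside 33.8% of tested genes. They rose in stromal medium too, where 21.1% of tested genes did, and 4 of 4 rose there with TMM and with the median of ratios too. However, all 4 had been listed as higher in adipocyte than in unconditioned medium, and the stromal comparison shares those unconditioned libraries. In adipocyte medium 1818 tested genes were called lower and 969 higher, so 21.1% is not the share for genes listed as higher. Gabpb1, for the partner of the ETS factor GABP, had 17498, 14694 and 16294 normalized counts in adipocyte medium, 11961, 12033 and 9578 in stromal medium, and 7290, 6971 and 6840 in unconditioned medium. The 3 media did not overlap, and the rise in stromal medium was 0.66 (limma adjusted p = 1.22e-04). Pprc1, a coactivator gene of the PGC-1 family, was at 1.33 in adipocyte against unconditioned medium and rose by 0.31 in stromal medium (limma adjusted p = 0.0085). Myc and Tfe3, growth and lysosomal transcription factor genes, rose by 0.33 and 0.29 in stromal medium (limma adjusted p = 0.0225 and 0.00434).

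**Figure D5:**
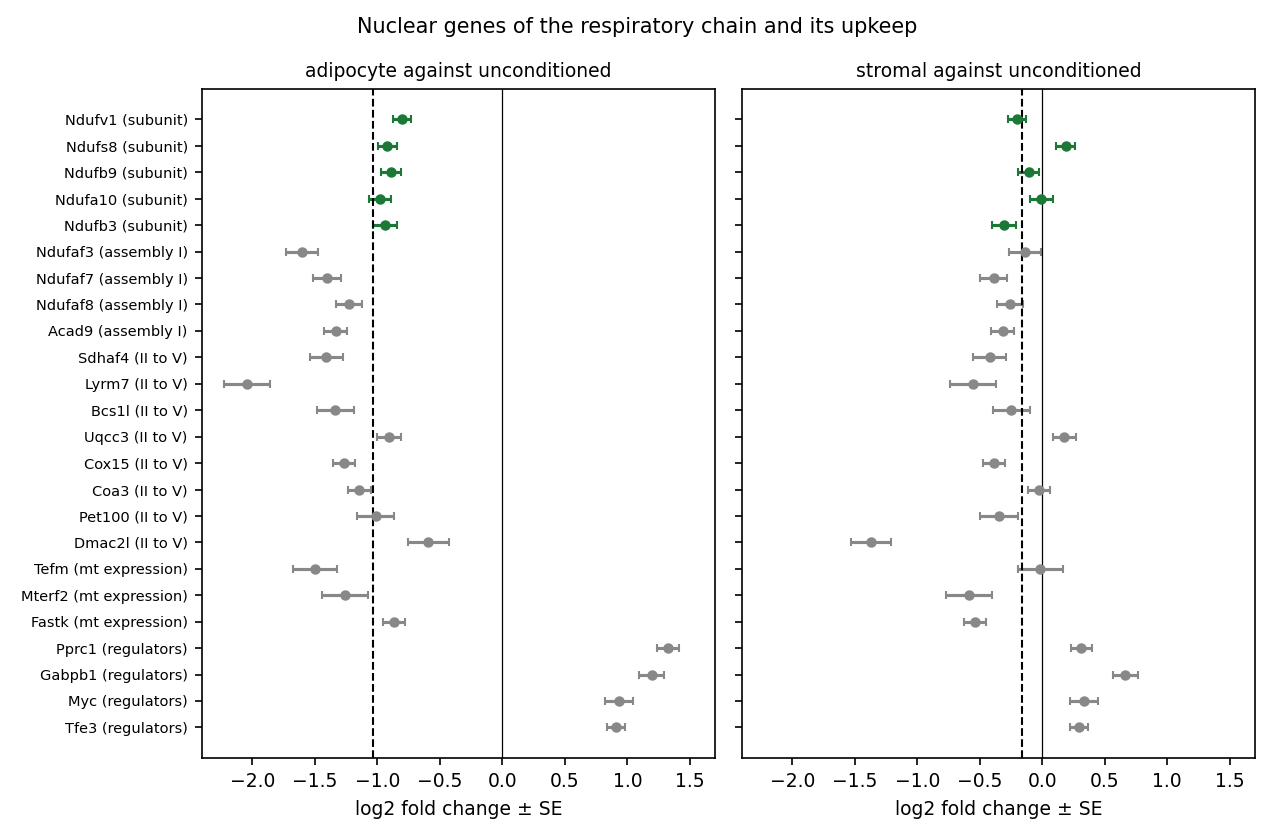
Limma log2 fold change ± SE for nuclear genes of the respiratory chain and its upkeep, in adipocyte (left) and stromal (right) over unconditioned medium, with complex I subunits in green; both share the unconditioned libraries. Dashed lines are the medians of all tested genes, -1.03 and -0.17; the 5 subunits lie between -0.98 and -0.80 on the left and between -0.31 and 0.19 on the right.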

How the data were processed

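Per the labels' protocols, 9 RNA samples were made into cDNA by SMART-seq v4 and into Nextera XT libraries; this type of kit primes cDNA at poly(A) and keeps no strand. Per the submitters' processing notes the tools included Trimmomatic, FastQC, DESeq2 and featureCounts, of unstated version. Those notes list GRCm39 beside the human builds hg38 and GRCh38, of unstated use. Which aligner, annotation and strand setting were used is not stated there. The deposited sample values are a signal per gene, read counts divided by 1 size factor per sample: 100% were whole multiples of a step within 0.001 reads, and whole reads were recovered. Per the file headers, the authors' tables hold a mean signal, a log2 fold change with its SE, a Wald score, and raw and adjusted p-values. The deposited scores equal a test for change beyond 1.5-fold, as recomputed from the fold changes and SEs. The sample table lists only genes of those tables, so shares of called genes are over genes already selected on these samples. They mix genes listed as higher and as lower, and are not shares for genes listed in 1 direction.

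The log2 of each value plus a pseudocount of 1 entered limma-trend (version 3.58.1 in R 4.3.3) for the 2868 genes whose mean reached 1, in 1 fit of 9 samples by medium, two-sided, with Benjamini-Hochberg adjustment over all tested genes and a threshold of 0.05. For low genes this scale makes fold changes too small. The fit was tested on simulated data. Alternatives were other pseudocounts, filters and scalings, the mouse as a block, each library left out, and edgeR 4.0.16 and DESeq2 1.42.0 on the recovered reads. The labels give the mouse, so replicate numbers pair samples; deviations of libraries from 1 mouse correlated by -0.12 to 0.26 (median 0.13), against a median of -0.075 between mice. Replicates differed by more than sampling noise (chi-square per degree of freedom 10.2 to 96.7). Mitochondrial gene names were taken from Ensembl identifiers in GENCODE M21, used for names, strand, order, exon length and transcript sequence only. The members and lists were chosen with earlier results of these data known. Named genes are the members, any listed gene of the pathway lists, and the 3 genes most like each nuclear subunit. A gene that this rule names is not reported here.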

Additional observations from a re-analysis of the deposited data

How the results depend on the processing

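Scaling changed the sign of several member values. With the median of ratios over the listed genes, adipocyte over unconditioned medium came to 0.0056 for Ndufs8, 0.13 for Ndufv1 and 0.036 for Ndufb9, and the deposited values shifted likewise to 0.0051, 0.13 and 0.033; stromal over unconditioned medium turned to 0.16 for Ndufv1 and 0.25 for Ndufb9, and to 0.034 for Ndufb9 with TMM. The cause was not tested. Called genes split into 969 higher and 1818 lower in adipocyte against unconditioned medium, and 1078 and 1047 after the median of ratios; into 606 and 1049 in stromal against unconditioned medium, and 1129 and 562 after it or 796 and 814 with TMM; and into 968 and 1641 in adipocyte against stromal medium, and 1172 and 1091 after it. With the mouse as a replicate block 2788, 1665 and 2619 genes were called, against 2787, 1655 and 2609 without it, and the limma adjusted p in stromal medium was 0.0451 for Ndufv1 and 0.0754 for Ndufs8; the block changed no call of a member. On recovered reads edgeR called 2784, 1685 and 2611 genes and DESeq2 2786, 1721 and 2606. With 1 library left out at a time the counts ran from 2771 to 2800, 1397 to 1772 and 2531 to 2599. Pseudocounts and filters moved no member across the threshold. Labels do not say whether libraries of 1 medium came from separate incubations beyond the mouse. Mitochondrial members have no values per library here, so their spread between mice could not be examined.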

Other observations

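Between Ndufs8 and Ndufv1 on chromosome 19, 1 of the 8 protein-coding genes of RefSeq's GRCm38.p6 annotation was in the sample table. This gene, Unc93b1, encodes a chaperone of endosomal Toll-like receptors, and it averaged 456 normalized counts in adipocyte medium, 951 in stromal medium and 1091 in unconditioned medium. Its order of media was that of Ndufv1 and not that of Ndufs8. It was chosen after its values were seen.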
